A study of Mus musculus with 8 samples.

Results

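The nuclear-encoded genes of the respiratory chain were examined in the renal cortex of aged and young mice. Members were taken from the count table by their symbols, which had to begin as the subunit symbols of complexes I to V do (Nduf followed by a, b, c, s or v, Sdha to Sdhd, Uqcr, Cyc1, Cox4 to Cox8 followed by a letter, and Atp5). Of the 22609 genes in the table, 91 matched, and 86 of them had at least 10 counts in at least 4 of the 8 libraries. Of these 86 genes, 79 encode structural subunits or their tissue isoforms (35 in complex I, 4 in complex II, 9 in complex III, 16 in complex IV and 15 in complex V). The other 7 share the symbols but encode no structural subunit.

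The renal cortex came from 4 aged and 4 young C57BL6 mice, all male and untreated, and a library was sequenced for each mouse. The labels give an age of 30 months for the aged and 5 months for the young mice, and the study's methods give a slightly higher mean age for the aged group. A whole cortex was lysed, so fewer cells of a type and less RNA per cell cannot be told apart in any value below. The libraries held 14820804 to 19821429 read pairs on genes, of which the members took 1.38% to 1.78% in aged and 1.597% to 1.71% in young mice. Levels are given as CPM, a gene's counts relative to all counts of its library, with libraries scaled by edgeR's trimmed mean of M values (TMM).

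The respiratory chain sits in the inner mitochondrial membrane. Complexes I and II pass electrons from NADH and succinate to ubiquinone, complex III passes them on to cytochrome c and complex IV to oxygen, and complexes I, III and IV pump protons that complex V (ATP synthase) uses to make ATP. Most subunits are encoded in the nucleus, while mitochondrial DNA encodes a small catalytic set, and the proximal tubule, which fills most of the cortex, relies on this pathway to reabsorb salt and solutes. No gene of mitochondrial DNA was listed in the count table, so both genomes could not be compared.

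Promoter sequence was examined because many of these genes are known to share binding sites for the regulators NRF1, GABP, the estrogen-related receptors and YY1. Windows from 250 bases before to 50 bases after the transcription start were available from RefSeq (build GRCm38.p6) for 71 of the 86 members. Short letter matches were sought on both strands, TGCGCA for NRF1, CCGGAAG for GABP, AAGGTCA for the estrogen-related receptors and AAGATGG for YY1. The NRF1 letters stood in the windows of 18 of 71 members (25.4%) and of 8.79% of the 27025 genes with a window, and the GABP letters in 17 (23.9%) and 9.93%. Estrogen-related receptor letters were found for 7 members (9.86%) against 5.38% of all genes, and YY1 letters for 12 (16.9%) against 7.28%. The members' windows had a median GC content of 58.3%, and those of all genes 52.8%, and the part of base composition in these shares was not tested. A match is a run of letters and not a measured binding site.

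Windows are printed for 4 genes on which the results below turn, 5′ to 3′ on the gene's own strand, with matches to any of these letters in capitals. Ndufa10 is the member that passed the test for lower expression in aged mice, Ndufaf4 is a complex I assembly factor with the lowest log2 fold change of the members, and Cox6b1 and Cox6b2 are the ubiquitous and the testis-type isoform of a complex IV subunit. The windows lie at chr1:92473709-92474008 (Ndufa10, minus strand), chr4:24897833-24898132 (Ndufaf4, plus strand), chr7:30626065-30626364 (Cox6b1, minus strand) and chr7:4753045-4753344 (Cox6b2, minus strand) in GRCm38.p6.
Ndufa10: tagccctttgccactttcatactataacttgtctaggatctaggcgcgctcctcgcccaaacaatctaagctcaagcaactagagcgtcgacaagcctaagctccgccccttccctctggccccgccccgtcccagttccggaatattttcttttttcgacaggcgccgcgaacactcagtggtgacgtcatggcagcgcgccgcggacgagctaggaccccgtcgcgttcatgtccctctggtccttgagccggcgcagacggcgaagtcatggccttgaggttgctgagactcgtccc
Ndufaf4: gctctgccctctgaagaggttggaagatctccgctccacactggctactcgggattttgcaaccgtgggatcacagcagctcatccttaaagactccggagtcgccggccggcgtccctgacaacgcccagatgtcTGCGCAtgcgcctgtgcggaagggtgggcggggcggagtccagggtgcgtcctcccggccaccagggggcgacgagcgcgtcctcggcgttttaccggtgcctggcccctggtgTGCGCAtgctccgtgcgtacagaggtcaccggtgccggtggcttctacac
Cox6b1: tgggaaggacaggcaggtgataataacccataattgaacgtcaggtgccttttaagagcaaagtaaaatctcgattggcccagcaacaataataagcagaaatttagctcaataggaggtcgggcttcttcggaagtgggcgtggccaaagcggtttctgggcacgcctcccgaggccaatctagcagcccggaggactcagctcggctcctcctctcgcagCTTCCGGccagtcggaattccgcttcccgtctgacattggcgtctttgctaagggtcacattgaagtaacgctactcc
Cox6b2: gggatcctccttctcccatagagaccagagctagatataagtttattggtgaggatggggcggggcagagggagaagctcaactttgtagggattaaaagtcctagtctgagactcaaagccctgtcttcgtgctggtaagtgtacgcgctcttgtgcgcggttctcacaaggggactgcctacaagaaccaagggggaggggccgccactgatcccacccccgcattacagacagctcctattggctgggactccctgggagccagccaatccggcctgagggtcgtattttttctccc
The window of Ndufaf4 held 2 NRF1 matches, the second of which began at the first transcribed base. Cox6b1 had 1 match, the GABP letters just before the start, and the windows of Ndufa10 and Cox6b2 held none of the letters.

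Expression of most members was slightly lower in aged mice, and a single member passed the test. Of the 86 members, 79 had a negative log2 fold change (aged over young), while 45.9% of all 13944 genes tested did. The median log2 fold change of the members was -0.18, a ratio of 0.881, and that of all genes tested was 0.03. Ndufa10 was the 1 member lower in aged mice at an adjusted p below 0.05 (edgeR quasi-likelihood test, Benjamini-Hochberg adjustment over all genes tested), a call that 1.44% of all genes received. None of them (0) passed with a fold change above 1.5, as 0.889% of all genes did. In the other direction 0 members passed, against 1.51% of all genes (0 and 1.17% with the fold change), and 3 members had an unadjusted p below 0.05 with higher expression (13.4% of all genes). With lower expression, 18 members had an unadjusted p below 0.05 (12.1% of all genes). The values of the aged and the young mice did not overlap for 19 members that were lower (10% of all genes) and 1 that was higher (8.85% of all genes).

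Scaling and a single library moved these numbers. When libraries were scaled by their size only, the median of all genes shifted to 0.14 and that of the members to -0.08, and 66 members were negative against 31.7% of all genes. The members' median minus that of all genes was -0.21 under either scaling. Without aged mouse 1, the median of the members was -0.11 and that of all genes 0.02, 71 members were negative (47.5% of all genes), 16 had an unadjusted p below 0.05 with lower expression (13.4% of all genes), and Ndufa10 was still the member that passed (3.2% of all genes), with 0 passing in the other direction (2.67% of all genes). The groups then did not overlap for 19 lower members (12.5% of all genes) and 1 higher member (11.4% of all genes). DESeq2 called 7 members lower (6.22% of all genes) and 1 higher (5.92%), and limma-voom with quality weights called 3 lower (3.6%) and 0 higher (2.84%).

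**Figure D1:**
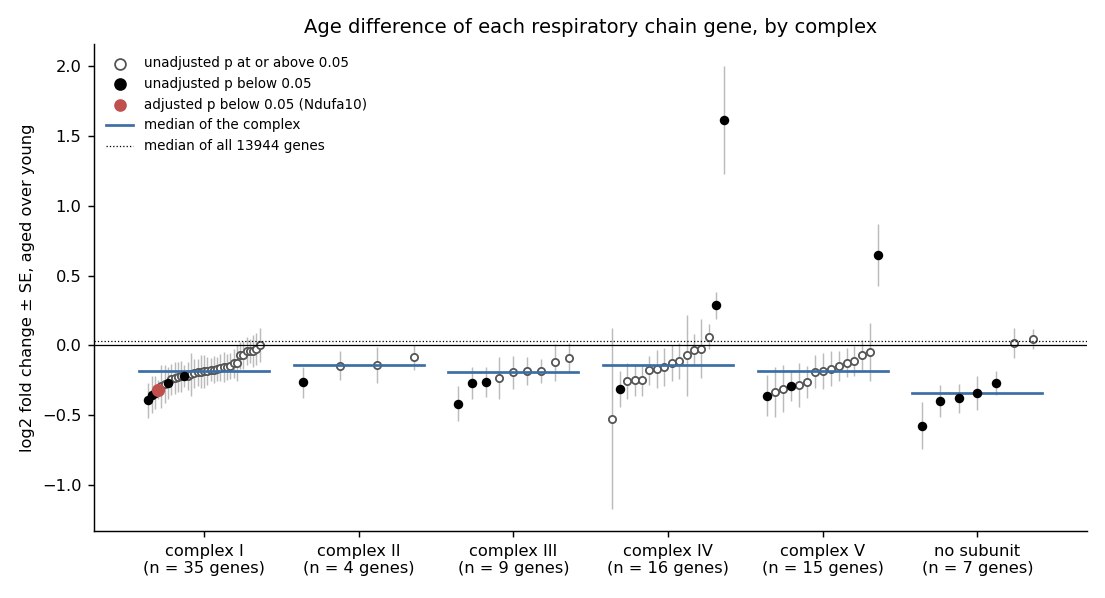
Log2 fold change (aged over young, with its standard error) of each of the 86 genes, grouped by complex, with 4 mice in each group. Nearly all points lie below 0 and below the median of all genes, Ndufa10 is the point with an adjusted p below 0.05, and the highest point is Cox6b2 in complex IV at 1.61.

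The aged mice differed among themselves more than the young mice did. Summed over the 86 members, expression was 12843, 17129, 16086 and 15435 CPM in aged mice 1 to 4 and 17258, 16745, 17617 and 17599 CPM in young mice 1 to 4. The aged group averaged 15373 ± 1825 CPM (SD, n = 4) and the young group 17305 ± 408 CPM (SD, n = 4). Aged mouse 1 was the lowest of all libraries, and aged mouse 2 lay within the range of the young mice. Relative to the mean of the young mice, the median member stood at log2 ratios of -0.47, -0.01, -0.11 and -0.21 in aged mice 1 to 4. Aged mouse 1 was below every other library in 75 of the 86 members, as it was in 29.3% of all genes tested. The 5 complexes shared this order of the aged mice. Read pairs that fell on no gene made up 29.9%, 22.6%, 24.8% and 29.0% of the pairs in aged mice 1 to 4, the reverse of the order of the members' levels, and 22.2%, 25.1%, 23.5% and 19.95% in young mice 1 to 4. The part of this share in the members' levels was not tested.

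**Figure D2:**
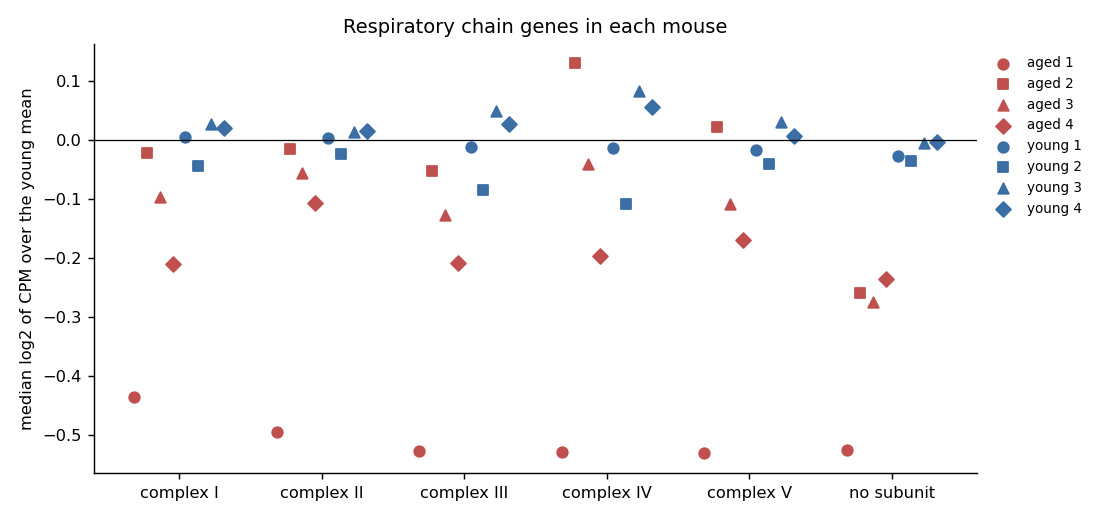
Median log2 ratio of CPM to the mean of the young mice over the genes of each complex, one point per mouse, with aged mice in red and young mice in blue. Aged mouse 1 lies between -0.44 and -0.53 in every group, and aged mouse 2 is above the lowest young mouse in every complex but below all of them (-0.26) for the genes that encode no subunit.

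Complex I, the NADH dehydrogenase, had 34 of its 35 measured members below 0, with a median log2 fold change of -0.18 (-0.11 without aged mouse 1). Its 7 core subunits, which carry the flavin and iron-sulfur centers, and its 28 accessory subunits had medians of -0.18 and -0.19. Ndufa10, an accessory subunit on the matrix side of the membrane arm, was measured at 149, 159, 159 and 162 CPM in aged mice and at 203, 198, 191 and 192 CPM in young mice. Each aged mouse was below each young mouse, and the spread within each group was small (SD of 5.74 and 5.72 CPM, n = 4). The log2 fold change was -0.32 ± 0.07 (SE), a ratio of 0.802, with an adjusted p of 0.0461 in edgeR's quasi-likelihood test. Over the 17 alternatives the adjusted p ranged from 1.7e-05 (DESeq2) to 0.145 (without young mouse 1). Ndufa10 lies on chromosome 1 at 94335587 to 94370437 in mm9, on the minus strand, with 10 exons in its longest coding transcript, and shared no stretch with another locus.

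Further complex I subunits had low unadjusted p-values without passing the adjusted threshold. Of the 35 complex I genes, 6 were lower at an unadjusted p below 0.05 (12.1% of all genes) and 0 higher (13.4%). Ndufa1, a small membrane subunit needed for assembly of the complex, was at 49.6, 70.6, 74.8 and 68.4 CPM in aged and 88.9, 79.1, 87.5 and 90.4 CPM in young mice. These groups did not overlap, and the log2 fold change was -0.39 ± 0.12 (SE) with an adjusted p of 0.104 in edgeR. Ndufv1, the core subunit that binds NADH and the flavin, was at 192, 218, 198 and 214 CPM in aged and 256, 242, 228 and 230.2 CPM in young mice. Here too the groups were apart, with a log2 fold change of -0.22 ± 0.08 (SE) and an adjusted p of 0.136 in edgeR, and DESeq2 gave 0.041. Ndufc2, Ndufa13 and Ndufb6, all accessory subunits, had log2 fold changes of -0.34, -0.35 and -0.27 with adjusted p of 0.127, 0.14 and 0.184 in edgeR. Of these 3 genes the aged and young mice were apart for Ndufa13 only. Further core subunits had log2 fold changes of -0.18 (Ndufs1), -0.04 (Ndufs3), -0.19 (Ndufs7), -0.29 (Ndufs8) and -0.02 (Ndufv2). Those of Ndufs3 and Ndufv2 turned positive when libraries were scaled by size only, and 82.8% of the 100-base windows of Ndufs3 had a near-identical copy elsewhere in the genome. Ndufa7 was the complex I member above 0, at 0.002 ± 0.12 (SE), which cannot be told from 0.

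Complex II, succinate dehydrogenase, also works in the tricarboxylic acid cycle and has its 4 subunits all encoded in the nucleus. The 4 genes had a median log2 fold change of -0.14 (-0.05 without aged mouse 1), and 0 passed the edgeR test, with 1 of 4 lower at an unadjusted p below 0.05 (12.1% of all genes). Sdhc, a membrane anchor, was at 173, 252, 218 and 220.5 CPM in aged and 258, 250.3, 261 and 266 CPM in young mice. Aged mouse 2 overlapped the young mice, and the log2 fold change was -0.26 ± 0.11 (SE) with an adjusted p of 0.183 in edgeR. The catalytic subunit Sdha, which averaged 773 ± 48.8 CPM (SD, n = 4) in the aged group and 819 ± 25.1 CPM (SD, n = 4) in the young group, had a log2 fold change of -0.08, which turned positive when libraries were scaled by size only. The iron-sulfur subunit Sdhb and the anchor Sdhd each had a log2 fold change of -0.14.

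All 9 members of complex III, the cytochrome bc1 complex, were below 0, with a median log2 fold change of -0.19 (-0.11 without aged mouse 1), and 0 passed the edgeR test, with 3 of 9 lower at an unadjusted p below 0.05 (12.1% of all genes). Uqcrq, a small subunit that contacts the mitochondrially encoded cytochrome b, was at 90.0, 137, 121 and 116 CPM in aged and 153, 145, 160.3 and 161 CPM in young mice. No aged mouse reached the lowest young mouse. Its log2 fold change of -0.42 ± 0.12 (SE) was the lowest of the complex, with an adjusted p of 0.0889 in edgeR, 0.0258 in DESeq2 and 0.0471 in limma-voom. The catalytic subunits Uqcrfs1 (the Rieske iron-sulfur protein) and Cyc1 (cytochrome c1) had log2 fold changes of -0.26 ± 0.11 (SE) and -0.27 ± 0.11 (SE) with adjusted p of 0.165 and 0.177 in edgeR. Uqcrfs1 was at 219, 303, 258 and 273 CPM in aged and 315, 298, 324 and 327 CPM in young mice. Cyc1 was at 165, 238, 213 and 215 CPM in aged and 251, 238, 259.9 and 251 CPM in young mice. For both genes aged mouse 2 touched the range of the young mice. The core proteins Uqcrc1 and Uqcrc2 each had a log2 fold change of -0.18.

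Complex IV, cytochrome c oxidase, was the most mixed, with 13 of 16 members below 0, a median log2 fold change of -0.14 (-0.07 without aged mouse 1) and 2 of the 3 members with higher expression at an unadjusted p below 0.05 (1 of 16 lower and 2 higher, against 12.1% and 13.4% of all genes). Ndufa4, long counted to complex I and now placed in complex IV, was at 175, 266, 251 and 243 CPM in aged and 288, 272, 298 and 302 CPM in young mice. The groups did not overlap, and the log2 fold change was -0.31 ± 0.13 (SE) with an adjusted p of 0.172 in edgeR. Cox6b1, which faces the intermembrane space, had a log2 fold change of -0.25 and an adjusted p of 0.208, and Cox5a, a matrix-side subunit, had -0.25 and 0.209. Cox4i1, the ubiquitous form of the largest nuclear subunit, averaged 475 ± 41.3 CPM (SD, n = 4) in the aged group and 455 ± 21.2 CPM (SD, n = 4) in the young group, a log2 fold change of 0.06 ± 0.09 (SE). Cox5b had a log2 fold change of -0.17, and 85.2% of its windows had near-identical copies.

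Cox6b2, an isoform known mainly from testis, had the highest log2 fold change of all members. It was at 13.0, 6.44, 9.78 and 3.81 CPM in aged and 2.10, 1.96, 3.94 and 2.84 CPM in young mice. Aged mouse 4 lay just below young mouse 3, and the other aged mice were above all young mice. The log2 fold change was 1.61 ± 0.39 (SE), or 3.06-fold, with an adjusted p of 0.0587 in edgeR, and 1.31 with an adjusted p of 0.0608 without aged mouse 1. It passed the threshold in DESeq2 (adjusted p = 0.0016), with library-size scaling (0.0432) and without aged mouse 4. Per length, Cox6b2 remained a minor isoform, at 14.97 RPKM (CPM per kilobase of transcript) in aged and 4.91 RPKM in young mice, against 473 and 562 RPKM for Cox6b1.

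**Figure D3:**
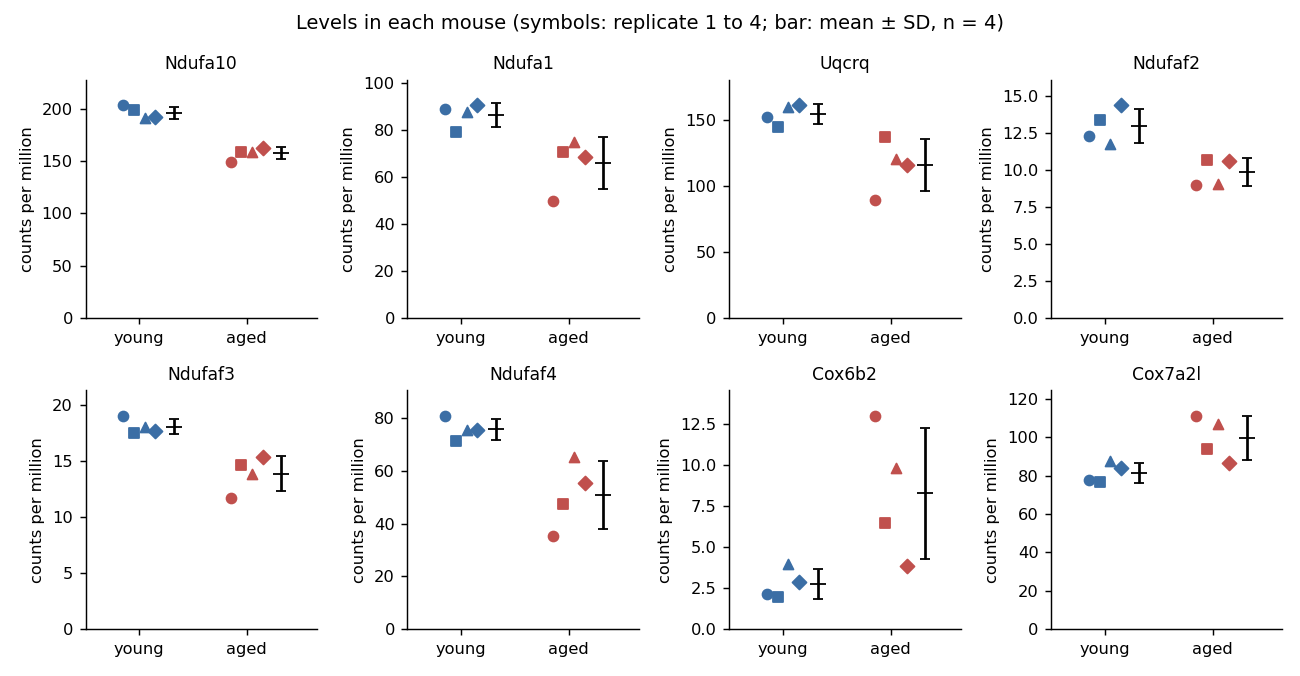
CPM of 8 genes in each mouse, with symbols for replicates 1 to 4 and bars for the mean and SD. Aged mice lie below all young mice for Ndufa10, Ndufa1, Uqcrq, Ndufaf2, Ndufaf3 and Ndufaf4, and they lie higher with some overlap for Cox6b2 (3.81 to 13.0 CPM) and Cox7a2l (86.7 to 111 CPM).

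Cox7a2l, a relative of Cox7a2 linked to supercomplexes and known in C57BL6 strains as a shortened protein that does not bridge complexes III and IV, was at 111, 93.6, 107 and 86.7 CPM in aged and 77.6, 76.8, 87.6 and 84.1 CPM in young mice. Aged mouse 4 overlapped the young mice, and the log2 fold change was 0.29 ± 0.10 (SE) with an adjusted p of 0.114 in edgeR. Of its windows 14.9% had near-identical copies. The muscle-type isoforms Cox7a1 (5.99 to 7.89 CPM) and Cox6a2 (0.0982 to 1.42 CPM) and the hypoxia-linked Ndufa4l2 (1.38 to 3.06 CPM) were low in all mice, with log2 fold changes of -0.11, -0.52 and -0.07. That of Ndufa4l2 turned positive when libraries were scaled by size only.

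Complex V had 14 of its 15 members below 0, with a median log2 fold change of -0.19 (-0.11 without aged mouse 1), and 0 passed the edgeR test, with 2 of 15 lower and 1 higher at an unadjusted p below 0.05 (12.1% and 13.4% of all genes). The catalytic subunit Atp5b had the highest level per length of all members, 1153 RPKM in aged and 1313 RPKM in young mice. In CPM it was at 1831, 2417, 2334 and 2255 in aged and 2464, 2499.6, 2518 and 2582 in young mice. These ranges did not overlap, but the log2 fold change of -0.19 ± 0.12 (SE) had an adjusted p of 0.344 in edgeR. The delta subunit of the central stalk, Atp5d, was at 209, 282, 286 and 272 CPM in aged and 316, 302, 327 and 336 CPM in young mice. Its groups too were apart, and it had a log2 fold change of -0.29 ± 0.11 (SE) and an adjusted p of 0.152 in edgeR. The epsilon subunit Atp5e was at 57.0, 92.2, 72.7 and 58.8 CPM in aged and 89.1, 85.4, 96.0 and 90.2 CPM in young mice. Here aged mouse 2 lay among the young mice, and the log2 fold change was -0.36 ± 0.15 (SE) with an adjusted p of 0.167 in edgeR. The remaining F1 subunits Atp5a1 and Atp5c1 had log2 fold changes of -0.12 and -0.15, and Atp5o of the stator had -0.07, which turned positive with library-size scaling.

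The c ring of complex V, which turns as protons pass, is built from a protein encoded by 3 genes. Atp5g1 and Atp5g3 had log2 fold changes of -0.31 and -0.17 with adjusted p of 0.273 and 0.414 in edgeR. Atp5g2 was at 2.95, 2.21, 2.73 and 1.96 CPM in aged and 1.29, 1.798, 1.84 and 1.36 CPM in young mice. It was the 1 member whose aged values were all above the young ones, with a log2 fold change of 0.65 ± 0.22 (SE) and an adjusted p of 0.123 in edgeR. All of its windows (100%) had a near-identical copy elsewhere, and pairs that fit several places were not counted, so its level is uncertain.

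Ratios between isoforms of a subunit were compared within each library, where no scaling enters. Cox6b2 counts were 6.70%, 2.36%, 3.98% and 1.5995% of Cox6b1 counts in aged mice and 0.735%, 0.764%, 1.41% and 0.944% in young mice. The log2 ratio differed by 1.77, and the groups did not overlap (exact permutation test, two-sided, p = 0.0286, 0.0667 adjusted over 7 pairs). With 70 orders of the 8 mice, 0.0286 is the smallest p that this test can give. Cox7a2l counts were 83.8%, 44.7%, 57.0% and 51.6% of Cox7a2 counts in aged and 40.5%, 44.4%, 42.4% and 41.2% in young mice, and the log2 ratio differed by 0.45, or 0.27 without aged mouse 1 (exact permutation p = 0.0286, adjusted 0.0667). Atp5g2 over Atp5g1 was 8.24%, 3.39%, 4.59% and 4.31% in aged and 2.07%, 2.75%, 2.86% and 2.23% in young mice, a log2 difference of 0.98 (exact permutation p = 0.0286, adjusted 0.0667). For these 3 pairs aged mouse 1 had the highest ratio of all mice. Near-identical copies covered 100% of the windows of Atp5g2 and 24.2% of those of Atp5g1, so the ratio of these 2 genes is uncertain. The other 4 pairs overlapped between the groups, with log2 differences of 0.17 (Atp5g3 over Atp5g1), -0.71 (Cox6a2 over Cox6a1), 0.23 (Ndufa4l2 over Ndufa4) and 0.05 (Cox7a1 over Cox7a2), and adjusted exact permutation p between 0.25 and 0.829.

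**Figure D4:**
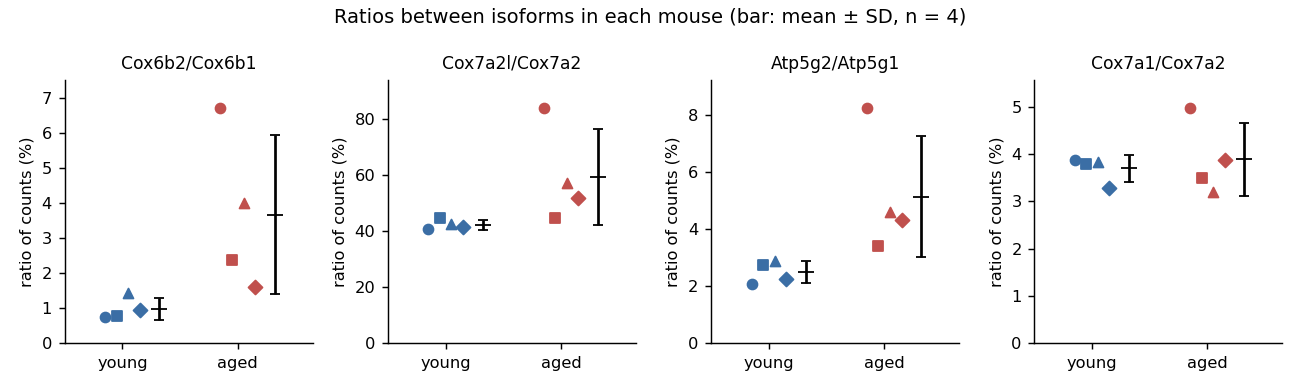
Ratio of counts between isoforms in each mouse as a percentage, with symbols for replicates 1 to 4 and bars for the mean and SD. The aged mice are above the young mice for Cox6b2 over Cox6b1, Cox7a2l over Cox7a2 and Atp5g2 over Atp5g1, and they overlap for Cox7a1 over Cox7a2. Copies elsewhere in the genome leave the ratio of Atp5g2 over Atp5g1 uncertain.

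The 7 genes that share the symbols but encode no structural subunit had the lowest median log2 fold change of the groups, -0.34 (-0.29 without aged mouse 1). Of these 7 genes, 0 passed the edgeR test, with 5 lower and 0 higher at an unadjusted p below 0.05 (12.1% and 13.4% of all genes). The groups did not overlap for 5 that were lower (10% of all genes). Among these 5 were Ndufaf1 to Ndufaf4, assembly factors of complex I. Ndufaf4 was at 35.2, 47.4, 65.4 and 55.4 CPM in aged and 80.8, 71.2, 75.4 and 75.5 CPM in young mice. Its log2 fold change was -0.57 ± 0.17 (SE), a ratio of 0.671, with an adjusted p of 0.0858 in edgeR. Ndufaf3 was at 11.6, 14.6, 13.8 and 15.3 CPM in aged and 19.0, 17.5, 18.02 and 17.6 CPM in young mice. Ndufaf2 was at 8.99, 10.7, 9.03 and 10.6 CPM in aged and 12.3, 13.4, 11.8 and 14.4 CPM in young mice. Ndufaf1 was at 20.1, 29.9, 27.5 and 27.7 CPM in aged and 33.8, 31.2, 32.7 and 35.2 CPM in young mice. Their log2 fold changes were -0.38 ± 0.11 (Ndufaf3), -0.40 ± 0.12 (Ndufaf2) and -0.34 ± 0.12 (Ndufaf1, all SE), with adjusted p of 0.0783, 0.0876 and 0.132 in edgeR. DESeq2 called Ndufaf2, Ndufaf3 and Ndufaf4 lower (adjusted p = 0.0328, 0.0238 and 0.0211), as it did 6.22% of all genes.

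Atp5sl, now named Dmac2 and also an assembly factor of complex I, was at 44.5, 43.5, 39.9 and 44.9 CPM in aged and 48.7, 58.9, 52.5 and 48.3 CPM in young mice. No value was shared between the groups, and the log2 fold change was -0.27 ± 0.09 (SE) with an adjusted p of 0.104 in edgeR. Atp5s, now Dmac2l, and Cox4nb, now Emc8 and part of an insertion complex of the endoplasmic reticulum, had log2 fold changes of 0.02 and 0.05. That of Atp5s turned negative when the trends on gene length and GC content were removed.

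The other 5 matching genes had too few counts to be tested. Cox4i2, the hypoxia-induced and lung-type form, had 2 to 9 counts per library. Cox7b2 had 2 counts and Cox8c 1 count, each in aged mouse 1 only. Ndufs5 is listed at 0 in all 8 libraries, as are the hemoglobin genes Hba-a1 and Hbb-b1, so no limit on its expression is drawn from the 0, and 58.2% of its windows had near-identical copies. Cox8b, the form of heart, skeletal muscle and brown fat, had 193, 10, 0 and 0 counts in aged and 1, 1, 4 and 0 counts in young mice. It was thus well above the floor of 3 counts in aged mouse 1 and at most 10 counts elsewhere.

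Copies elsewhere in the genome also touched some members' levels. For 71 of the 86 members at most 10% of the windows had a copy, and these had a median log2 fold change of -0.19, with 66 of 71 below 0. Ndufb4 of complex I was at 10.8 RPKM in young mice with 44.2% of its windows copied, and Atp5l of complex V at 8.62 RPKM with 90.8% copied. Pairs that fit several places were not counted, so the levels of genes with many copied windows are uncertain.

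Markers of the cell types of the cortex were counted beside these results. The 8 markers of proximal tubule segments S1 and S2 summed to 11711 CPM in aged mouse 1, to between 22155 and 24951 CPM in the other aged mice and to between 21527 and 26162 CPM in young mice. The 4 markers of segment S3 summed to 900.5, 1444.5, 1039.6 and 3381 CPM in aged and 5341, 4692, 3709 and 4663 CPM in young mice. All 4 were lower at an unadjusted p below 0.05 (12.1% of all genes) and 0 at an adjusted one (1.44%), and their median log2 fold change was -1.44. Slc22a7 and Atp11a did not overlap between the groups, with log2 fold changes of -4.02 and -1.91 and adjusted p of 0.0615 and 0.0732 in edgeR. Slc7a13 and Slc5a8 overlapped, with -0.97 and -0.60 and adjusted p of 0.195 and 0.16. Aged mouse 1 was thus low in both sums, and all aged mice were below all young mice in the S3 sum. The low S1 and S2 sum of aged mouse 1 was not shared by all its markers. Lrp2 and Slc34a1, the most abundant of the list, were at 3862 and 2481 CPM there against at least 9399 and 5429 CPM in young mice. Slc5a2, Cubn and Slc22a6 were also below all young mice there, while Slc5a12, Slc4a4 and Slc22a8 lay within the young ranges. Of the 8 markers 4 had a negative log2 fold change. Slc22a6 was lower in each aged than in each young mouse, with -0.90 and an adjusted p of 0.107 in edgeR. Slc5a12 had 0.75 with an adjusted p of 0.128 in edgeR. Whether the makeup of the cortex pieces had a part in the members' levels was not tested.

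Fat markers and Cox8b were both highest in aged mouse 1, while aged mouse 4 and young mouse 4 had fat sums of 16.6 and 10.8 CPM with 0 Cox8b counts. The 5 fat markers summed to 159.6 CPM in aged mouse 1, to 4.01 to 26.1 CPM in the other aged mice and to 0.612 to 10.8 CPM in young mice. In aged mouse 1 the brown fat genes Ucp1 and Cidea were at 16.9 and 26.9 CPM, while Ucp1 was at 0 in all 4 young mice. Of the 6 skeletal muscle markers, the myosin genes Myh1 and Myh4 were at 0 in all mice, and the list summed to between 0.680 and 1.23 CPM. As with Ndufs5, no limit on the expression of Myh1 and Myh4 is drawn from the 0. Aged mouse 1 also had 89.2 CPM of the inner medulla transporter gene Slc14a2, and young mouse 1 had 26.7 CPM, against at most 0.327 CPM in the others.

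**Figure D5:**
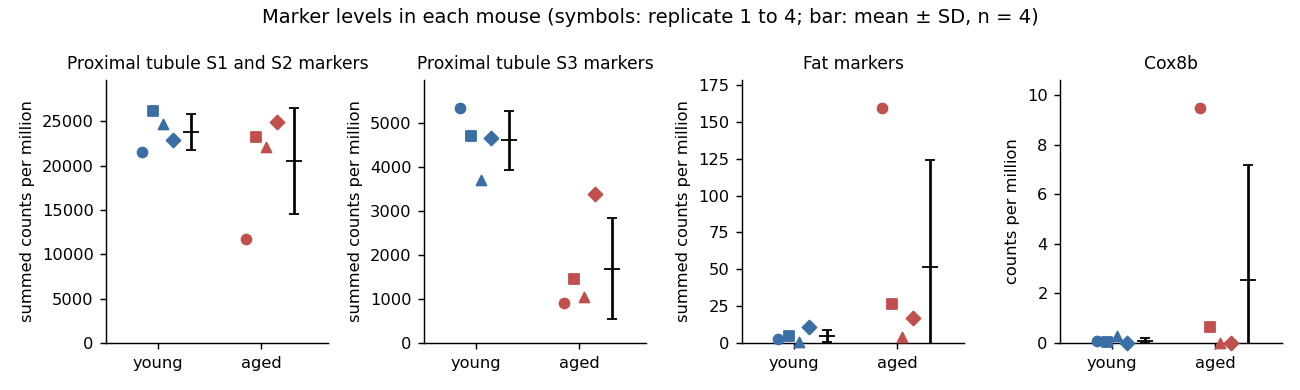
Summed CPM of the markers of proximal tubule S1 and S2, proximal tubule S3 and fat, and CPM of Cox8b, in each mouse, with bars for the mean and SD (drawn down to 0 only). Aged mouse 1 is the lowest for the first list (11711 CPM) and the highest for fat markers (159.6 CPM) and Cox8b (9.48 CPM), and the S3 markers are lower in all aged mice.

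Other genes that serve the chain were examined by list. Of 18 assembly factors of complex I, 15 were below 0 with a median log2 fold change of -0.24 (-0.13 without aged mouse 1), and 0 passed the edgeR test, with 7 of 18 lower at an unadjusted p below 0.05 (12.1% of all genes). This list holds Ndufaf1 to Ndufaf4 and Atp5sl, which are also members. Of 33 assembly factors of complexes II to V, 31 were below 0 with a median of -0.25 (-0.19 without aged mouse 1), and 0 passed, with 11 of 33 lower at an unadjusted p below 0.05 (12.1% of all genes). Cox11, which delivers copper to complex IV, was at 18.3, 22.1, 19.8 and 22.6 CPM in aged and 30.3, 26.7, 24.9 and 26.3 CPM in young mice. The groups were apart, with a log2 fold change of -0.39 ± 0.10 (SE) and an adjusted p of 0.0684 in edgeR. The next smallest p in that list was that of 1810063B05Rik, now Coa6 and also a complex IV assembly factor, with a log2 fold change of -0.55 ± 0.16 (SE) and an adjusted p of 0.0869.

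Among 17 genes of ubiquinone synthesis, cytochrome c, the electron transfer flavoprotein, the ATP synthase inhibitor and the Higd1a and Higd2a proteins, 15 were below 0 with a median log2 fold change of -0.26 (-0.21 without aged mouse 1), and 1 passed (1.44% of all genes), with 9 lower and 1 higher at an unadjusted p below 0.05 (12.1% and 13.4%). Coq4, a factor of ubiquinone synthesis, was at 10.4, 12.9, 13.4 and 12.6 CPM in aged and 18.5, 17.3, 17.7 and 18.3 CPM in young mice. It was lower in aged mice, with no overlap, by a log2 fold change of -0.54 ± 0.10 (SE) and an adjusted p of 0.0389 in edgeR (0.0231 without aged mouse 1, and up to 0.13 without another mouse). Adck3, now Coq8a and an atypical kinase of the same synthesis, stood in the other direction at 207, 294, 126 and 148 CPM in aged and 92.8, 105, 108 and 108 CPM in young mice. The groups were again apart, with a log2 fold change of 0.91 ± 0.24 (SE) and an adjusted p of 0.0701 in edgeR.

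The mitochondrial ribosome translates the subunits encoded in mitochondrial DNA. Its list was drawn by symbol only and took the 76 genes whose symbols begin with Mrpl or Mrps and a number. Of these, 67 were below 0, with a median log2 fold change of -0.20 (-0.13 without aged mouse 1). At an unadjusted p below 0.05, 25 were lower and 1 higher (12.1% and 13.4% of all genes), and the groups did not overlap for 28 that were lower (10% of all genes). Mrpl43, of its large subunit, was the 1 gene that passed (1.44% of all genes), at 27.5, 30.5, 26.7 and 26.7 CPM in aged and 37.7, 35.2, 37.5 and 37.2 CPM in young mice. It was lower in each aged mouse by a log2 fold change of -0.41 ± 0.08 (SE) with an adjusted p of 0.0363 in edgeR (0.0276 without aged mouse 1, and up to 0.12 without another mouse). Mrps36, listed by its symbol and not checked for a place in the ribosome, had the next smallest p. Its log2 fold change was -0.70 ± 0.16 (SE), with an adjusted p of 0.0508 in edgeR. Of 14 genes of the tricarboxylic acid cycle, 13 were below 0 with a median of -0.18 (-0.12 without aged mouse 1), and 0 passed, with 5 of 14 lower at an unadjusted p below 0.05 (12.1% of all genes). Fumarase (Fh1) and the catalytic subunit of isocitrate dehydrogenase Idh3a had the smallest p, with log2 fold changes of -0.22 and -0.38 and adjusted p of 0.102 and 0.104 in edgeR.

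Regulators of mitochondrial biogenesis and of mitochondrial DNA showed no common direction, with 13 of 23 below 0 and a median log2 fold change of -0.03, and 0 passed, with 4 of 23 lower and 1 higher at an unadjusted p below 0.05 (12.1% and 13.4% of all genes). The receptor gene Esrra was at 48.1, 90.1, 92.9 and 92.8 CPM in aged and 109, 115, 119 and 109 CPM in young mice. Each aged mouse was below each young mouse, and the log2 fold change was -0.48 ± 0.19 (SE) with an adjusted p of 0.161 in edgeR, and -0.30 with an adjusted p of 0.0354 without aged mouse 1. Its coactivator gene Ppargc1a was at 174, 199, 151 and 180.2 CPM in aged and 151, 162, 143 and 135 CPM in young mice, with some overlap, a log2 fold change of 0.25 ± 0.10 (SE) and an adjusted p of 0.163. Polrmt, the mitochondrial RNA polymerase, had a log2 fold change of -0.23 ± 0.07 (SE) and an adjusted p of 0.0938 in edgeR. Mterfd1, now Mterf3, had -0.24 ± 0.08 (SE) and 0.121, and 2310042D19Rik, now Perm1, had -0.85 ± 0.32 (SE) and 0.15. The other estrogen-related receptor genes did not share the direction of Esrra clearly. Esrrg had a log2 fold change of -0.06 with an adjusted p of 0.853 in edgeR. Esrrb had 0.45 with 0.369, and 0.05 without aged mouse 1. The genes for NRF1 (Nrf1), GABP (Gabpa and Gabpb1), YY1 (Yy1) and the mitochondrial transcription factor Tfam had log2 fold changes of 0.12, 0.10, 0.005, 0.05 and -0.01.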

How the data were processed

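RNA was sequenced from the renal cortex of 4 aged and 4 young mice after depletion of ribosomal RNA, with stranded libraries. The authors aligned read pairs to mm9 with TopHat2, used HTSeq-count in its strand-aware mode on the RefSeq genes, and deposited raw counts per gene without normalization. A pair with several possible places was left uncounted, so genes with near-identical copies can be undercounted. The submitters' processing notes also name CASAVA 1.8.2 and SAMtools. Groups came from the sample labels. The joint table was used, in which 0 values differed from the tables of the single samples, and the 5 rows that name no gene were left out (pairs on no gene made up 20.0% to 29.9% of a library and pairs aligned to several places 34.3% to 39.1%).

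The counts were tested in R 4.3.3 with edgeR 4.0.16 quasi-likelihood (TMM, filterByExpr with a minimum count of 10, all 8 libraries, no covariate), with Benjamini-Hochberg adjustment over 13944 genes. DESeq2 1.42.0 and limma 3.58.1 (voom) were alternatives, as were other scalings, filters and thresholds, a replicate block, removal of each library's trend on length and GC content, and each mouse left out in turn. Isoform ratios used a pseudocount of 0.5 (2 as alternative) and exact permutation over 70 orders. RPKM used the longest coding transcript of the GENCODE annotation of mm9. Copies were sought in mm9 with blastn 2.17.0 at 98% identity over windows of 100 bases. Gene names newer than the table's came from a RefSeq gene table of GRCm38.p6, used for names only. Precision from depth was set by a floor of 3 counts, which covers counting error only. This is 0.151 to 0.202 CPM per library on library sizes without TMM scaling, unlike the other CPM given. The fits were tested on simulated counts.

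The members, lists and tests were chosen with earlier results of these data known. Members named are those that passed the test, the 2 with the smallest p in each direction in each complex, catalytic and core subunits, isoforms and the genes that encode no structural subunit. From each other list of mitochondrial genes, genes that passed and the 2 with the smallest p are named, and regulators by their values. From the marker lists only some genes are named, and unnamed ones can have smaller p. Ehd3 of the endothelium list had a log2 fold change of -0.28 and an unadjusted p of 0.0077 in edgeR. The values of 1 member are not reported here by name.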

Additional observations from a re-analysis of the deposited data

Results flagged for a closer look

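A library was looked for that lay far from the other 3 of its group, in 74 groups of 4 mice. These covered the named members with an unadjusted p below 0.05 in edgeR, the tested isoform genes with their counterparts, and Cox8b. Summed CPM of each complex and of the genes that encode no structural subunit were also covered. The measure was the gap to the nearest other mouse as a share of the group's range, set against Dixon's critical value for 4 samples. Chance alone would mark about 1 in 20 groups, or 3.7 of the 74, and 2 were marked. Cox8b in aged mouse 1, at 9.48 CPM against 0.650 CPM or less in the other aged mice, had a share of 0.931. The same library had the highest fat markers. Ndufa4l2 in young mouse 1, at 1.54 CPM against 2.49 to 2.66 CPM in the other young mice, had a share of 0.846.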

How the results depend on the processing

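The medians of all members and of each complex stayed negative in all 109 recomputed values. They moved by less than the SD of the medians of the 4 aged mice, which is a wide limit. In complex II those medians were -0.50, -0.02, -0.06 and -0.11 relative to the young mean. The median log2 fold change of complex II was -0.14, but -0.05 without aged mouse 1 and -0.035 with library size only. That of complex IV was -0.14, -0.07 and -0.03. The count of members that passed with lower expression was not stable. It was 0 instead of 1 with upper-quartile scaling (161 of all genes passed), library size only (179) and no filter on low counts (164). It was also 0 with length and GC trends removed (253 of all genes) and with a fold change above 1.5 added (0.889%). The count was 3 in limma-voom (3.6% of all genes), 7 in DESeq2 (6.22%) and 18 at an unadjusted p below 0.05 (12.1%). With each mouse left out in turn it ranged from 0 to 1. It was 0 without aged mouse 2 or 3 (53 and 38 of all genes) or any one young mouse (3 to 14 of all genes). The count with higher expression was 0, but 1 with library size only (597 of all genes) and in DESeq2 (5.92%). It was 3 at an unadjusted p (13.4%), and 0 to 1 with a mouse left out (1 without aged mouse 4, with 510 of all genes). The cause was not tested. Of 49 members named, 7 changed sign in some alternative. With library size only the log2 fold changes were 0.0391 (Atp5o), 0.0384 (Ndufa4l2), 0.0742 (Ndufs3), 0.0851 (Ndufv2) and 0.0249 (Sdha). With upper-quartile scaling they were 0.0011 (Ndufs3) and 0.0147 (Ndufv2), and in limma-voom 0.0343 (Ndufa4l2) and 0.0322 (Ndufv2). Ndufa7 was at -0.0022 with DESeq2 size factors, -0.0023 in DESeq2, -0.0019 with length and GC trends removed and -0.0062 with no filter. Atp5s was at -0.0052 with length and GC trends removed. With each mouse left out in turn the ranges were -0.137 to 0.01 (Atp5o), -0.0238 to 0.0852 (Atp5s), -0.268 to 0.0975 (Ndufa4l2), -0.0767 to 0.0785 (Ndufa7), -0.0786 to 0.0221 (Ndufs3), -0.111 to 0.0653 (Ndufv2) and -0.0711 to 0.141 for the log2 ratio of Cox7a1 over Cox7a2.

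With the replicate number as a block, 0 members passed with lower expression (59 of all genes). The adjusted p of Ndufa10 in edgeR was then 0.118, the median of the members was -0.19, and Ndufa7 was at -0.0009. The labels give both groups the numbers 1 to 4 but no shared animal or day. The deviations of same-numbered mice correlated at 0.206, 0.038, 0.199 and -0.030, and those of differently numbered mice at -0.300 to 0.165. The values for numbers 1 and 3 were thus above those of all differently numbered mice. These correlations cannot decide whether the numbers mark pairs, and the main test took none.

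Depth limits the isoforms with few counts (Cox4i2, Cox7b2, Cox8c, Cox6a2). Over all genes, 201 passed with lower and 210 with higher expression, and leaving out a young mouse left 3 to 14 and 5 to 18.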

Other observations

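Markers of other cells in the cortex were also measured, each list by its genes and none tested as a list. The 5 markers of the thick ascending limb were all below 0, with a median log2 fold change of -0.36, and Umod and Egf had unadjusted p of 0.0432 and 0.0309. The 3 markers of the distal convoluted tubule had a median of 0.42, with log2 fold changes of 0.47 for Slc12a3, the thiazide-sensitive transporter, 0.42 for Trpm6 and -1.03 for Pvalb, and adjusted p of 0.133, 0.195 and 0.202 in edgeR. The medians, with the value without aged mouse 1 in parentheses, were -0.17 (-0.10) for principal cells, -0.18 (-0.08) for intercalated cells, 0.02 (0.03) for podocytes, 0.05 (-0.10) for endothelium, -0.17 (-0.09) for fibroblasts and pericytes, 0.01 (-0.03) for smooth muscle, 0.36 (0.48) for macrophages and 0.66 (0.68) for lymphocytes. In the inner medulla list 3 genes were tested, with a median of 0.48 that was -0.22 without aged mouse 1. Of the red cell markers Alas2 had a log2 fold change of -0.26. In the fibroblast list the collagen genes Col3a1 and Col1a1 had log2 fold changes of -1.24 and -1.20 with adjusted p of 0.0559 and 0.0729 in edgeR, while Pdgfra, Dcn and Pdgfrb had 0.45, 0.62 and -0.17 with adjusted p of 0.17, 0.305 and 0.563. In the macrophage list Csf1r, the receptor for colony-stimulating factor, passed with lower expression in aged mice (log2 fold change -1.004, adjusted p of 0.0472 in edgeR, and up to 0.133 with a mouse left out), while the other 5 genes of the list were above 0.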
